A study of Mus musculus with 26 samples.

Results

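The transcripts described here are those of 50 genes that serve cell division, 25 for the copying of DNA in S phase and 25 for mitosis. They were chosen by symbol, out of 18378 gene symbols on the arrays, and all 50 were found, on 67 probes. Each gene is given by its probe with the highest mean signal in an array set. Every gene was well above background on every measured array of all 8 cell groups. One outlying spot each of Cdt1 and Prc1 was left out in CD34- CD103- Epo, so that these genes rest on fewer arrays there.

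All cells came from EML, a mouse blood progenitor line that can give erythroid, myeloid and lymphoid progeny, kept in IMDM with horse serum and SCF-conditioned medium (SCF, stem cell factor). The sources used here do not expand the names CR and EryCP. RNA of 8 groups was hybridised to 26 one-colour arrays in 3 sets. The first set held the fractions Sca1hi, CR Sca1lo and EryCP (3 arrays each), and the second held EryCP measured again (EryCP repeat, 3 arrays) and Ediff (3 arrays), the cells without CD34 and cKit that EryCP cells gave under erythropoietin (Epo). The third held CD34+ CD103- and CD34- CD103- cells (4 arrays each) and CD34- CD103- Epo (3 arrays), described as CD34- CD103- cells after erythroid differentiation driven by Epo. All groups come from 1 line, the labels give neither dose nor time of Epo, and no label says that samples of a group were separate cultures, so that p-values measure the spread between these samples, which may be technical.

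Cells license each replication origin before S phase by loading a ring of the Mcm2 to Mcm7 proteins. Cyclin E helps to turn the loaded ring into a moving helicase, and E2F factors switch on the polymerase, clamp and nucleotide genes. Mitosis follows from cyclin B with Cdk1, and ends when the anaphase promoting complex marks cyclin B for destruction. In the erythroid lineage, maturing cells keep dividing while they fill with haemoglobin and then leave the cycle. In mice, E2f2 is known for its part in that late maturation.

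E2F-like letters were frequent in the promoters of the S phase genes and CHR-like letters in those of the mitosis genes. The promoters of 5 genes on which the results turn are shown from RefSeq (build GRCm38.p6), each from 250 bases before to 50 after its first listed start. Capitals mark matches on either strand to an E2F-like motif (TTCCCGC or TTGGCGC) or a CHR-like motif (TTTGAA or TTTAAA), a site known from late cell cycle genes.
E2f2, chr4:136172024-136172323, plus strand: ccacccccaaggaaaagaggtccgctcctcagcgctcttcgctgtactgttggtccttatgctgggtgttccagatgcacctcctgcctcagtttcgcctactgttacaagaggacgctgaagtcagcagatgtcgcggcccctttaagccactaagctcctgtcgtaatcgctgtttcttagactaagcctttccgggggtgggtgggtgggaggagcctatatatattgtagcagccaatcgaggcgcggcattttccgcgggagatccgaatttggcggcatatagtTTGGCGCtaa
Ccne1, chr7:38107441-38107740, minus strand: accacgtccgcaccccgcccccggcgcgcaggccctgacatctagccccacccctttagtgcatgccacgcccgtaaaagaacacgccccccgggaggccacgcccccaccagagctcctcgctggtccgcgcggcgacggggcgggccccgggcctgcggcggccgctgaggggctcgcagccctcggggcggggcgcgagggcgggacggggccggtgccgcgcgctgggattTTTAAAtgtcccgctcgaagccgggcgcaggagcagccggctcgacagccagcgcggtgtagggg
Mcm3, chr1:20820263-20820562, minus strand: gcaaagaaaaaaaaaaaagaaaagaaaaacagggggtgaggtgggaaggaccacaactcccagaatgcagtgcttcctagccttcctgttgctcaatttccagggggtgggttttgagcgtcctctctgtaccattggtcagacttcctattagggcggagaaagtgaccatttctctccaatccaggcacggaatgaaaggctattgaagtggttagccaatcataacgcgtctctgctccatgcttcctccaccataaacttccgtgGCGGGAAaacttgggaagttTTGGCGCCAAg
Mcm7, chr5:138171834-138172133, minus strand: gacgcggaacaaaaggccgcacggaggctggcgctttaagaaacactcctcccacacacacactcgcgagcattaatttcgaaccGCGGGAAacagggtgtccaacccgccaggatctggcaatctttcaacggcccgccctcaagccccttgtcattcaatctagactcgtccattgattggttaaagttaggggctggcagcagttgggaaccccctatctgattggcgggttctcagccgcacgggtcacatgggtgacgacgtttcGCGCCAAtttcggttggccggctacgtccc
Ube2c, chr2:164769679-164769978, plus strand: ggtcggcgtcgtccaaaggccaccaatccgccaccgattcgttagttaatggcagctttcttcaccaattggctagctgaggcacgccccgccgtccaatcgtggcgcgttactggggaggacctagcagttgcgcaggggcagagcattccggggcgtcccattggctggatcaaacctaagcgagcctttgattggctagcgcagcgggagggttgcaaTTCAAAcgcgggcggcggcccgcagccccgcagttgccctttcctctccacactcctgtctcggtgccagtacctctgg
The E2f2 window holds 1 E2F-like match, 40 bases past the start. Mcm3 and Mcm7 encode neighbours in the same ring and hold 3 and 2 such matches, of which a pair overlaps in Mcm3. Ccne1 and Ube2c hold 1 CHR-like match each and no E2F-like match.

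Of the 50 genes 40 matched a promoter, 20 of each kind. An E2F-like match was present in 11 of the 20 S phase promoters (55%), in 3 of the 20 mitosis promoters (15%) and in 6.93% of 27025 promoters of the same length. A CHR-like match stood in 18 of 20 mitosis promoters (90%), in 6 of 20 S phase promoters (30%) and in 27.8% of all. The CCAAT box, the letters read by NF-Y, was present on either strand in 18 mitosis and 13 S phase promoters (90% and 65%), against 37.9% of all; it can overlap the letters TTGGCGC by 4 bases. These are counts of letters, not of bound sites.

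**Figure D1:**
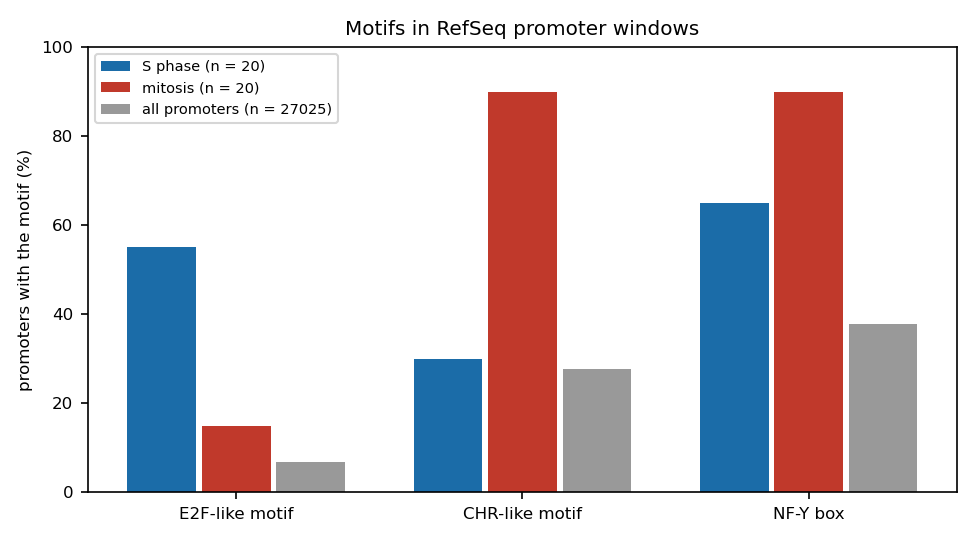
Share of promoter windows, in percent, that hold an E2F-like motif, a CHR-like motif or an NF-Y box, for 20 S phase genes, 20 mitosis genes and 27025 promoters. The E2F-like bar is highest for S phase genes (55%) and the CHR-like bar for mitosis genes (90%).

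Levels are log2 of the processed signal relative to the array's 75th percentile, and differences are given ± standard error with limma's 2-sided Benjamini-Hochberg adjusted p over all genes of a comparison, called at 0.05. The 75th percentile lay between 425.3 and 1247 signal units, 76.16% to 93.94% of probes were well above background, and 24703 to 27360 genes were tested. Sets were not compared in level, since set and group cannot be told apart. In bulk RNA, fewer cells of a type and less RNA per cell cannot be told apart, which holds for every level below. The median of each of the 2 lists on each array is shown for all 8 groups. In the first set the 3 arrays of slide 2 had the lowest S phase medians (-0.33, -0.18 and -0.23) and the most probes above background, in all 3 fractions alike. Ly6a, the gene of Sca1, fell by 5.56 ± 0.14 from Sca1hi to CR Sca1lo (adjusted p = 3.41e-06). Each slide of the first set carried all 3 fractions once, and a slide block therefore changes p there but not the differences.

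**Figure D2:**
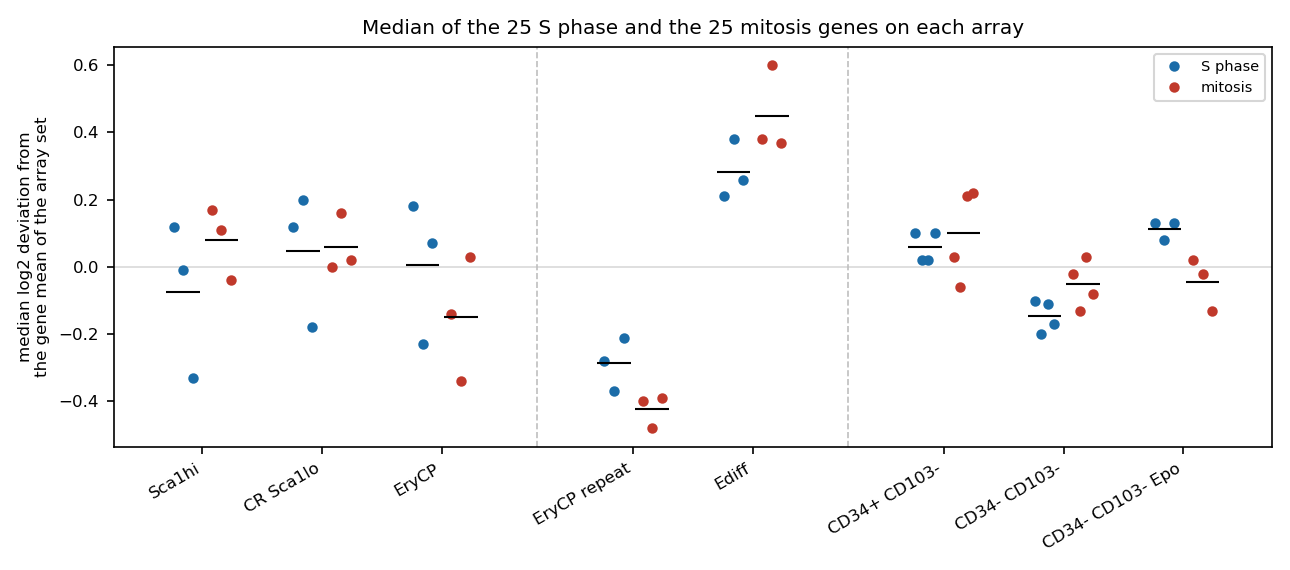
Median log2 deviation of the 25 S phase and 25 mitosis genes from each gene's mean over its array set (vertical axis), 1 point per array, with group means as black lines and the 3 array sets split by dashed lines. Ediff arrays lie between 0.21 and 0.60 and EryCP repeat arrays between -0.48 and -0.21, while points of the first set overlap.

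The fractions of the first set were compared to see how the division genes differ between them. E2f2, an E2F transcription factor, had log2 levels of 2.71, 2.67 and 2.53 in Sca1hi, 1.19, 1.32 and 1.11 in CR Sca1lo and 3.11, 2.73 and 3.01 in EryCP. The CR Sca1lo arrays lie far below all others, with no overlap. E2f2 fell by 1.43 ± 0.15 from Sca1hi to CR Sca1lo (2.70-fold, adjusted p = 0.00193, limma, n = 3 per fraction) and was 1.74 ± 0.15 higher in EryCP than in CR Sca1lo (3.35-fold, adjusted p = 0.000391). Within the 3 slides the first difference ran from -1.48 to -1.39 and the second from 1.62 to 1.91. Both calls held with each array left out in turn, with adjusted p up to 0.0198 and 0.00423.

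Ccne1, the gene of cyclin E1, had the same pattern at a smaller size. Its levels were 4.10, 4.07 and 3.97 in Sca1hi, 3.33, 3.42 and 3.13 in CR Sca1lo and 4.20, 3.89 and 4.08 in EryCP. CR Sca1lo was again below the others on every array. Ccne1 fell by 0.75 ± 0.15 (adjusted p = 0.0327) and was 0.76 ± 0.15 higher in EryCP (adjusted p = 0.0237), and its second probe differed by -0.69, without a call, and 0.70. The first call ended without any 1 of 6 arrays (adjusted p 0.0765 to 0.164) and the second without 5 of 6 (up to 0.109), all but EryCP replicate 2 (0.0333), and both ended with spike-in scaling (0.135 and 0.086). With slide as a block the adjusted p was 0.00152 and 0.00107. Their closest relatives moved little: E2f1 differed by 0.02 and -0.14, and Ccne2, of cyclin E2, by -0.07 and 0.23, with no call.

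**Figure D3:**
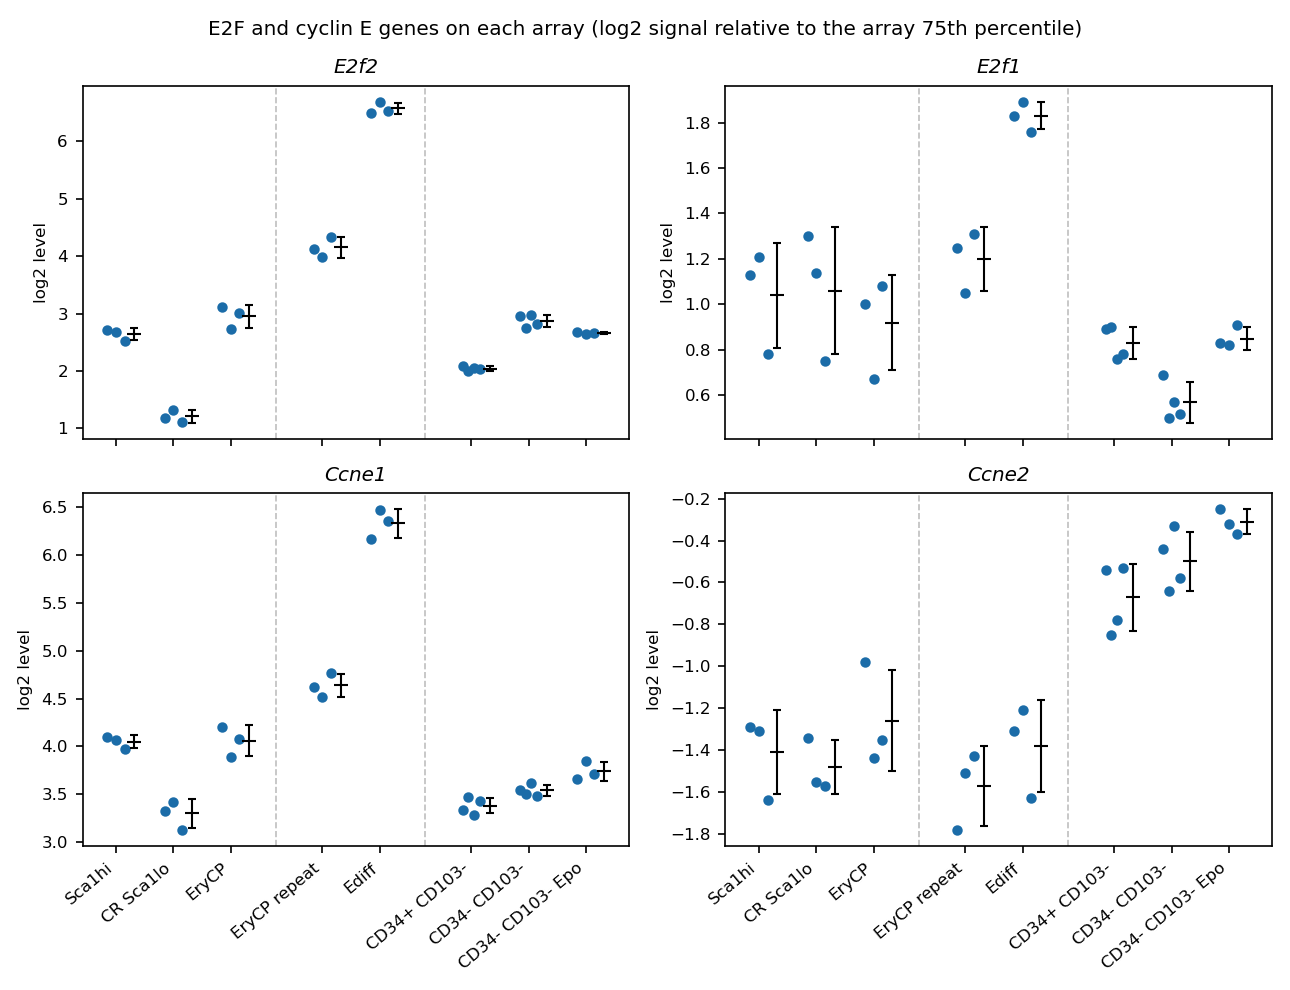
Log2 level relative to the array's 75th percentile of E2f2, E2f1, Ccne1 and Ccne2 on each of 26 arrays, with mean and SD (bars) per group and dashed lines between the array sets, on separate scales. E2f2 is at 1.11 to 1.32 in CR Sca1lo of the first set and 6.49 to 6.68 in Ediff of the second. E2f1 lies between 0.50 and 1.89 over all arrays. Levels of different sets were not tested against each other.

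E2f2 and Ccne1 were the 2 members called in CR Sca1lo against Sca1hi, both lower, where 3.59% of 26465 genes were called (2.38% lower). They were also the 2 called in EryCP against CR Sca1lo, both higher, where 4.95% of genes were called (2.7% higher), and the contrasts share the CR Sca1lo arrays. The other 23 S phase genes ran from -0.07 to 0.52 in the first contrast, with Mcm2 at 0.17, Mcm5 at 0.17, Pcna, the sliding clamp, at -0.01 and Rrm2, of ribonucleotide reductase, at 0.02. The 8 genes that load the helicase were all above 0, from 0.03 (Cdt1) to 0.52 (Mcm7), with none called. In the second contrast Mcm2 differed by 0.02, Mcm5 by -0.26, Pcna by 0.13 and Rrm2 by 0.25. Other S phase genes outside the list, 47 in number, gave 0 calls by limma in the first contrast (3 with an unadjusted p under 0.05) and 1 in the second, E2f8, a repressor of the E2F family (1.11 ± 0.15, adjusted p = 0.00385). Mitosis genes gave 0 calls by limma in both (1 and 4 of 25 had an unadjusted p under 0.05, all lower, as did 13.2% and 14.2% of all genes in either direction), with medians of -0.05 and -0.25 against 0.03 and -0.07 over all genes. By slide the mitosis median of the first contrast ran from -0.12 to 0.02 and that of the second from -0.35 to -0.11. In the first, Cdk1 was at 0.23, Ccnb1, of cyclin B1, at -0.15, Mki67 at -0.21, Top2a, the topoisomerase of chromosome condensation, at 0.21, Plk1 at -0.04, Aurkb at 0.15, Cdc20 at 0.14, Cenpf at 0.00 and Foxm1 at -0.52. In the second they stood at -0.48, -0.25, 0.16, -0.08, -0.32, -0.33, -0.48, -0.22 and 0.13 in that order, with Ccnb2 at 0.01. Of the other mitosis genes, 65 in number, Spc25, of the kinetochore, was called in the first contrast (-0.78 ± 0.14, adjusted p = 0.0237) and none in the second, where 11 had an unadjusted p under 0.05.

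Between EryCP and Sca1hi of the first set, 0 members were called by limma without the slide, where 6.39% of genes were. Still, 6 mitosis genes, all lower, had an unadjusted limma p under 0.05, as did 14.9% of all genes (1832 of 26465 lower). With slide as a block 13 members were called, where 20.8% of genes were. Of these, 10 were mitosis genes, all lower in EryCP, where 10.5% of all genes were called lower, and 3 were S phase genes, all higher, where 10.3% were. Prc1, which bundles the central spindle, was at -0.46 with adjusted p of 0.00448 in the blocked fit, Aurka, of the spindle pole kinase, at -0.49 (0.00775) and Kif23, a motor of cytokinesis, at -0.47 (0.0132). Plk1 was at -0.36 (0.0163), Foxm1, the activator of late cycle genes, at -0.39 (0.0204), Cdc20 at -0.34 (0.0208), Cenpe at -0.35 (0.0258) and Ccnb1 at -0.39 (0.0326). Kif20a was at -0.34 (0.0436) and Ube2c at -0.37 (0.0489). The S phase genes were Pola1 at 0.40 (0.0282), Mcm4 at 0.35 (0.0337) and E2f2 at 0.31 (0.0359). The mitosis median was -0.22, and -0.15, -0.28 and -0.21 within the 3 slides. The S phase median was 0.12, and -0.03, 0.15 and 0.20 by slide. Uncalled in both fits were Mcm2 (0.19), Mcm5 (-0.10), Pcna (0.12), Rrm1 (0.00), Rrm2 (0.26), Ccne1 (0.01), Ccne2 (0.16), E2f1 (-0.12), Cdk1 (-0.25), Mki67 (-0.04), Top2a (0.13), Aurkb (-0.19) and Bub1b (-0.04). E2f8 outside the list was 0.85 ± 0.15 higher (adjusted p = 0.0118 without the block).

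Slide as a block also added 9 members to E2f2 and Ccne1 in EryCP against CR Sca1lo, all lower, 7 of them mitosis genes (20.2% of all genes were called in that fit, 9.03% higher and 11.2% lower). Cdc20 had an adjusted p of 0.00593, Aurka 0.0126 and Prc1 0.0207, and the S phase genes added were Gins2 (-0.33, 0.0249) and Pole (-0.28, 0.0478). In CR Sca1lo against Sca1hi it added Mcm7 (0.52, adjusted p = 0.00908), Mcm6 (0.43, 0.0229) and Foxm1 (-0.52, 0.00912), where 17.7% of genes were called (9.64% higher, 8.1% lower). The summed level of 4 measured macrophage markers was 4.29 to 7.63 in EryCP against 2.44 to 3.76 in Sca1hi and 0.853 to 1.69 in CR Sca1lo, and that of 4 measured neutrophil markers 10.7 to 14.8 against 0.324 to 1.03 in the others, where 2 of the 4 were well above background on all arrays. Erythroid markers, 9 in number, summed to 12.9 to 15.4 in EryCP and 1.42 to 2.28 in the others. Mast cell markers, 8 in number, summed to 629 to 781 in EryCP, 274 to 370 in CR Sca1lo and 247 to 364 in Sca1hi. The part of these other cell types in the results was not tested.

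Ediff cells were compared with EryCP cells of the same set to follow the division genes into erythroid differentiation. Relative to the 75th percentile 39 of 50 members were called, 38 higher and Mcm3 lower, while with arrays centred on the spike-in RNA 4 were called higher and 17 lower. Of all 24703 genes, 56.6% were called (39.8% higher and 16.8% lower), and 49% with spike-in scaling (4.27% higher, 44.7% lower). The median of all genes moved between the scalings from 0.45 to -0.49, and of the 38 members called higher 21 lay below 0 by spike-in. The mitosis median of 0.92 stood above that of all genes by the first scaling, and by the second it was -0.02 against -0.49. The S phase median was 0.61, or -0.34 by spike-in. Of 25 mitosis genes 19 lay above the median of all genes, and of 25 S phase genes 14. Groups did not overlap for 44 members, as for 63.3% of all genes.

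**Figure D4:**
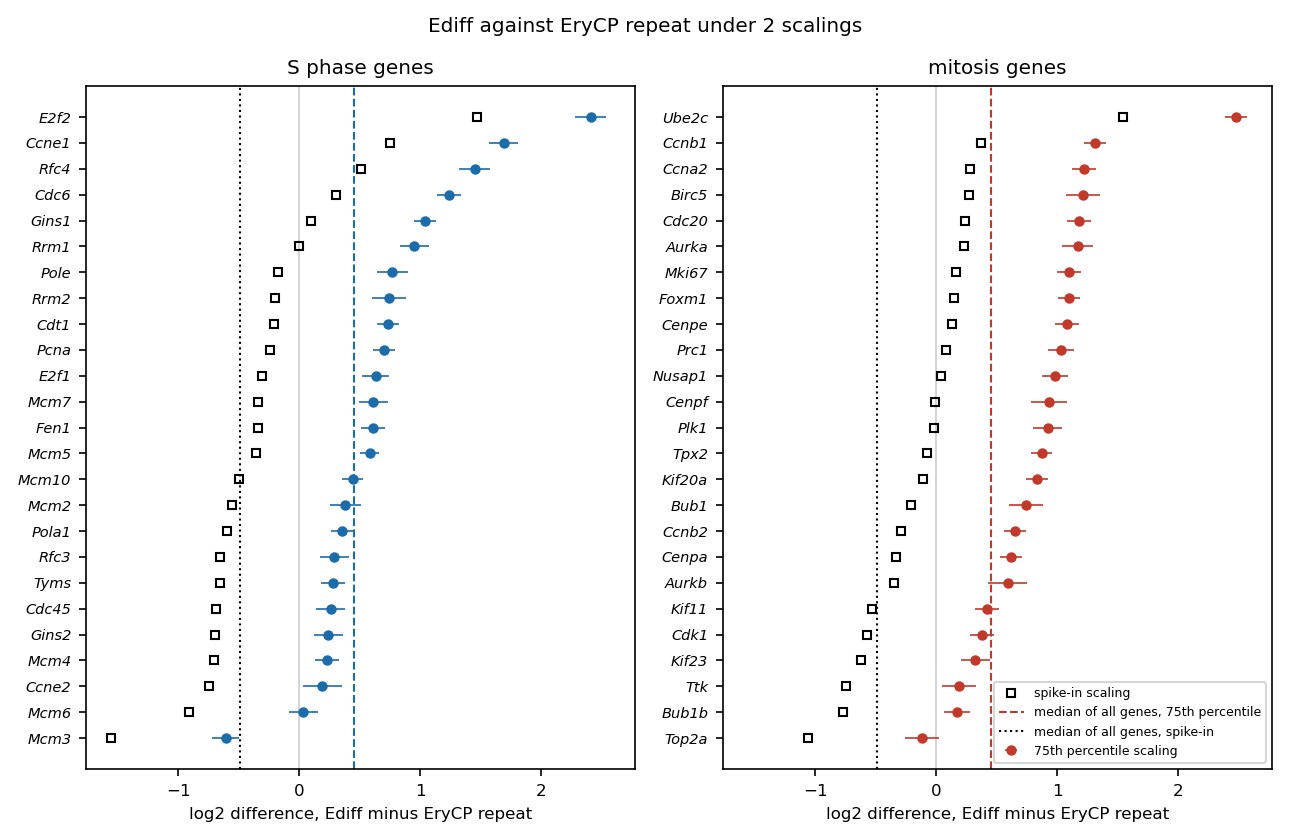
Log2 difference of each gene between Ediff and EryCP repeat (horizontal axis), with 75th percentile scaling (filled circles, bars for the standard error) and spike-in scaling (open squares), and the median of all genes under each (dashed and dotted lines). E2f2, Ccne1, Rfc4 and Ube2c lie right of 0 by more than 0.5 under both scalings, and Mcm3 lies left of 0 under both.

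Regulators of S phase entry led the S phase genes. E2f2 had levels of 6.49, 6.68 and 6.53 in Ediff and 4.13, 3.98 and 4.34 in EryCP repeat, a difference of 2.41 ± 0.13 (5.33-fold, adjusted p = 3.14e-05, n = 3 per group) that was 1.47 by spike-in (adjusted p = 0.000152). Ccne1 stood at 6.17, 6.47 and 6.36 against 4.62, 4.52 and 4.77 and was 1.69 ± 0.12 higher (3.24-fold, adjusted p = 0.000117), or 0.75 by spike-in (0.00529). Both rose under both scalings, and no array of one group overlapped with the other group. E2f1 was 0.63 ± 0.11 higher (adjusted p = 0.00397) but at -0.31 by spike-in, and Ccne2 was not called, at 0.19 and -0.75.

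The transcripts of the helicase ring did not move as 1 unit. Mcm2 to Mcm7 rest on 1 probe each, and probes of the same gene can differ, as for Cdk1 (0.38 and 1.39). The part of the probes in this result was not tested. Mcm3 had levels of 3.16, 3.39 and 3.35 in Ediff and 3.89, 4.01 and 3.84 in EryCP repeat, and Mcm7 6.34, 6.59 and 6.38 against 5.85, 5.67 and 5.96. Mcm3 was lower and Mcm7 higher on every Ediff array than on any EryCP repeat array. Mcm3 fell by 0.61 ± 0.11 (adjusted p = 0.00437), and by spike-in it was at -1.56 (adjusted p = 0.000397). Mcm7 was 0.61 ± 0.12 higher (adjusted p = 0.00766), Mcm5 0.58 ± 0.08 (0.002) and Mcm2 0.38 ± 0.13 (0.0431), the last with its call lost without any 1 array; by spike-in these stood at -0.34, -0.36 and -0.56. Mcm4 and Mcm6 were not called, at 0.23 and 0.03. Of the factors that load the ring, Cdc6 was 1.24 ± 0.10 higher (adjusted p = 0.000213, 0.30 by spike-in without a call) and Cdt1 0.73 ± 0.09 higher (-0.21 by spike-in).

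Among the genes that activate the helicase, Gins1 was called higher (1.04, 0.10 by spike-in), as was Mcm10 (0.44, -0.50 by spike-in). Gins2, of the same complex as Gins1, and Cdc45, which binds it, were not called, at 0.24 and 0.26. Of polymerase and clamp genes 5 of 6 were called higher. Rfc4, of the clamp loader, led them at 1.45 ± 0.13 (2.74-fold, adjusted p = 0.000296), with 0.51 by spike-in (adjusted p = 0.0435), while Rfc3 of the same loader was not called, at 0.29. Pcna was 0.70 ± 0.09 higher (adjusted p = 0.00141) but -0.24 by spike-in. Of the genes that supply nucleotides, Rrm1 and Rrm2 were called higher, at 0.95 and 0.74 (0.00 and -0.20 by spike-in), and Tyms, of thymidylate synthase, narrowly was not (0.28, adjusted p = 0.0507), though both of its probes (0.28 and 0.30) were called in a fit over all probes.

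Ube2c, the ubiquitin-conjugating enzyme of the anaphase promoting complex, led the mitosis genes. Its levels were 5.57, 5.65 and 5.66 in Ediff and 3.23, 3.12 and 3.09 in EryCP repeat. The groups lay far apart and their arrays close together, at a difference of 2.48 ± 0.09 (5.59-fold, adjusted p = 8.26e-06), or 1.54 by spike-in (adjusted p = 0.000183). Cdc20, the activator of the same complex, was 1.18 ± 0.10 higher (adjusted p = 0.000244), or 0.24 by spike-in without a call. All 4 genes of cyclins and Cdk1 were called higher, with Ccnb1 at 1.31 (0.37 by spike-in), Ccna2 at 1.22 (0.28), Ccnb2 at 0.65 (-0.29) and Cdk1, the kinase itself, at 0.38 (-0.57), a call that held in 3 of 6 fits with 1 array left out. The 2 Cdk1 probes differed, at 0.38 and 1.39, both called.

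Of 6 mitotic kinases 4 were called higher, with Aurka at 1.17, Plk1 at 0.92, Bub1 at 0.74 and Aurkb at 0.59 (0.23, -0.02, -0.21 and -0.35 by spike-in), while the checkpoint kinases Bub1b (0.17) and Ttk (0.19) were not. All 4 centromere genes were called higher, from 0.62 (Cenpa, the centromere histone) to 1.21 ± 0.14 (Birc5, survivin, adjusted p = 0.000744), and by spike-in the 4 lay between -0.33 and 0.27. Of 6 spindle and cytokinesis genes 5 were called higher, up to 1.03 (Prc1, 0.08 by spike-in), and Kif23 was not (0.32), though its second probe was (0.37). Mki67 and Foxm1 were both 1.10 higher (0.16 and 0.15 by spike-in). Other probes of Mki67, Cenpe and Cenpf stood as low as 0.60, 0.53 and 0.48, all called in the fit over all probes. Top2a had levels of 2.63, 2.99 and 2.83 in Ediff and 2.97, 3.08 and 2.77 in EryCP repeat. These overlap, and the difference of -0.12 ± 0.14 was not called, or -1.06 by spike-in. The second Top2a probe stood at 0.42, also without a call.

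Differences between genes on the same array do not depend on how the array is scaled. From EryCP repeat to Ediff the log2 ratio of E2f2 to E2f1 changed by 1.79, that of Ccne1 to Ccne2 by 1.50 and that of Mcm7 to Mcm3 by 1.22. The pairs were chosen after their values were seen, so these are descriptions with no test. The SD of these ratios within a group was 0.07 to 0.26.

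Of 47 other S phase genes 33 were called higher and 0 lower (median 0.49), and of 65 other mitosis genes 46 and 0 (median 0.59). Over all genes 39.8% were called higher and 16.8% lower (median 0.45). By spike-in 1 and 3 were called higher and 24 and 29 lower, where 4.27% of all genes were higher and 44.7% lower. Brca2 (1.56 ± 0.11, adjusted p = 0.000117) and the helicase gene Recql4 (1.44 ± 0.16, 0.000647) led the other S phase genes. Psrc1 (3.19 ± 0.11, 8.02e-06), a spindle protein, and Cdc25b (2.99 ± 0.11, 8.66e-06), the phosphatase that activates Cdk1, led the other mitosis genes. The summed level of 9 erythroid markers was 859 to 896 in Ediff and 31.7 to 43.6 in EryCP repeat, and that of 8 mast cell markers 5.03 to 6.39 against 614 to 722, with 7 of the 8 still well above background on all Ediff arrays. Their part in the result was not tested. With slide as a block 42 members were called, where 66.9% of genes were, and the differences of E2f2, Ccne1 and Ube2c within the 2 slides ran from 2.44 to 2.53, 1.74 to 1.77 and 2.49 to 2.50.

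**Figure D5:**
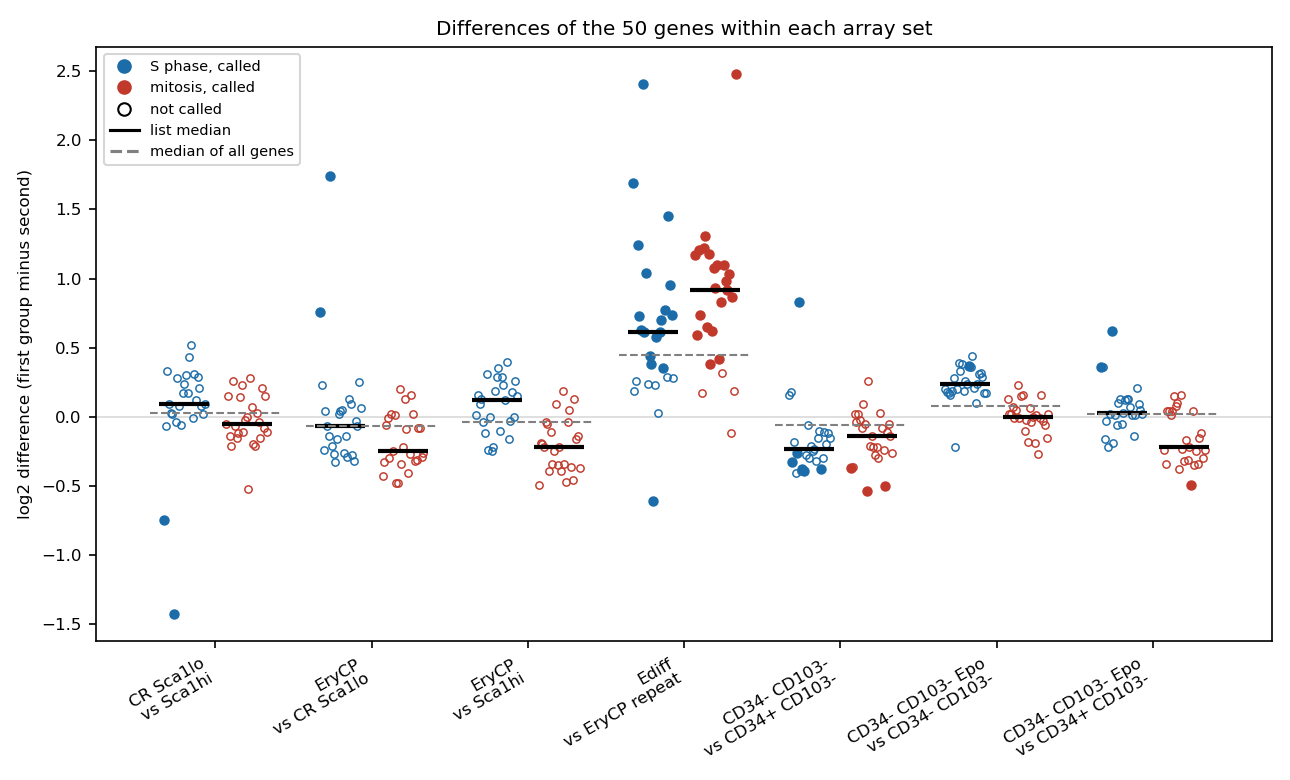
Log2 difference of each of the 50 genes in 7 comparisons (first group minus second, 75th percentile scaling), S phase left and mitosis right in each pair; filled points were called by limma, black bars are list medians and dashed lines the median of all genes. Called points are few outside Ediff against EryCP repeat, where 39 are filled.

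CD34- CD103- and CD34+ CD103- cells were compared to see how the division genes differ across loss of CD34 in cells without CD103. Of the 50 members 9 were called, 8 lower in CD34- CD103- and E2f2 higher, where 12.5% of 27360 genes were called (6.82% lower, 5.66% higher). E2f2 had levels of 2.96, 2.75, 2.97 and 2.81 in CD34- CD103- and 2.09, 2.00, 2.06 and 2.03 in CD34+ CD103-. Every array of the first group lay above every array of the second, and E2f2 was 0.83 ± 0.07 higher (1.78-fold, adjusted p = 2.55e-05, n = 4 per group), or 0.62 by spike-in (0.0187). E2f1 went the other way, with 0.69, 0.50, 0.57 and 0.52 against 0.89, 0.90, 0.76 and 0.78, and fell by 0.26 ± 0.07 (adjusted p = 0.0408), a call that held in 2 of 8 fits with 1 array left out.

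Of the 4 genes that activate the helicase 3 were called lower. Gins1 fell by 0.38 ± 0.08 (adjusted p = 0.0137), Gins2 by 0.39 ± 0.10 (0.0255) and Cdc45 by 0.33 ± 0.09 (0.0434, held in 1 of 8 fits with 1 array left out), and Mcm10 was at -0.28 without a call. Pole, of the leading strand polymerase, fell by 0.38 ± 0.09 (adjusted p = 0.0167). The 8 loading genes lay between -0.41 (Cdt1) and -0.06 (Mcm2), with none called. Among mitosis genes Cdk1 had 1.92, 1.75, 1.74 and 1.53 against 2.35, 2.07, 2.42 and 2.25 and fell by 0.54 ± 0.11 (adjusted p = 0.00864). Prc1 fell by 0.50 ± 0.13 (adjusted p = 0.0355, held in 3 of 8) and Aurka by 0.37 ± 0.10 (0.0349, held in 2 of 8, and 0.0527 with slide as a block). The 2 Cdk1 probes were at -0.54 and -0.37, the first called. Ccnb1, Mki67, Top2a, Plk1, Aurkb, Cdc20, Foxm1 and Bub1b stood at -0.08, 0.03, -0.11, -0.24, -0.36, -0.05, -0.22 and 0.02 without a call, and Mcm5, Pcna, Rrm2, Ccne1 and Ccne2 at -0.25, -0.15, -0.12, 0.16 and 0.18.

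The S phase median was -0.23 and the mitosis median -0.14, against -0.06 over all genes, and by slide they ran from -0.24 to -0.17 and from -0.32 to -0.03. Groups did not overlap for 13 S phase and 5 mitosis members, where 17.1% of genes did not. With slide as a block 15 members were called, 13 lower (17.7% of all genes, 10.2% lower), and with spike-in scaling 15, 14 lower (15.5% of all genes, 2.17% higher and 13.3% lower), where the median of all genes was -0.27. Outside the list 13 of 47 other S phase genes were called lower and 1 higher, led by Brca2 (-0.63 ± 0.11, adjusted p = 0.00298) and Pold2 (-0.57 ± 0.12, 0.0104) with Blm at 0.28 ± 0.08 (0.0454), and 7 of 65 other mitosis genes were lower and 3 higher. Of these Ccnf (-0.63) and Espl1, of separase (-0.57), were the lowest and Psrc1 (0.44) and Cks2 (0.40) the highest. The summed level of 4 measured macrophage markers was 17.8 to 21.9 in CD34- CD103- against 0.98 to 1.1 in CD34+ CD103-, and that of 5 neutrophil markers 18 to 22.9 against 0.806 to 1.15. That of 8 mast cell markers was 790 to 832 against 436 to 452. The part of such cells in the lower levels was not tested. Of the genes of the sorting markers, Cd34 fell by 1.78 ± 0.16 (3.44-fold, adjusted p = 3.14e-05), and Itgae, of CD103, was 1.53 ± 0.13 higher in CD34- CD103- (2.89-fold, adjusted p = 2.27e-05), though both groups are labelled negative for it.

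CD34- CD103- cells after Epo were compared with the untreated fraction as the second Epo response of the study. Mcm5 was the 1 member called, where 2.6% of genes were (0.676% higher). Its levels were 5.03, 5.08 and 5.19 after Epo and 4.87, 4.66, 4.72 and 4.68 before, a difference of 0.37 ± 0.08 (adjusted p = 0.0407) that was called in 1 of 7 fits with 1 array left out, at 0.0614 with slide as a block and at 0.705 with spike-in scaling. Single genes thus gave little, and the 2 lists are given by their medians. S phase genes had a median of 0.24, with 24 of 25 above 0 and above the median of all genes (0.08), and mitosis genes one of 0.00, with 13 above 0. At an unadjusted p under 0.05 stood 16 S phase genes, 15 of them higher, and 0 mitosis genes, where 16.5% of all genes did. Groups did not overlap for 18 S phase genes and 1 mitosis gene, where 19.1% of all genes did not. By slide the S phase median was 0.23 and 0.15, and the mitosis median -0.01 and -0.08. By spike-in they were 0.02 and -0.22, against -0.14 over all genes.

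Mcm7 (0.44), Gins1 (0.39) and Mcm10 (0.38), other genes of the helicase, differed by more than Mcm5 but were not called. Mcm6 was at 0.36, also without a call. Mcm2 was at 0.19, Pcna at 0.21, Rrm2 at 0.17, Ccne1 at 0.20, Ccne2 at 0.18, E2f1 at 0.28 and Pola1 at 0.10. E2f2 was the 1 S phase gene below 0, at -0.22 ± 0.08 (adjusted p = 0.198), with 2.67, 2.64 and 2.66 after Epo. All 3 Epo arrays lay below all 4 before. Among mitosis genes Cdk1 was at 0.16, Ccnb1 at 0.23, Mki67 at 0.01, Top2a at -0.03, Plk1 at -0.01, Aurkb at 0.02, Cdc20 at 0.15, Foxm1 at 0.06 and Kif20a at 0.00. The other S phase genes had a median of 0.21 with 0 of 47 called by limma (18 had an unadjusted p under 0.05, all higher), and the other mitosis genes one of 0.03 with 2 of 65 called, Cdc25b (-0.65 ± 0.12, adjusted p = 0.0172) and Psrc1 (-0.57 ± 0.09, 0.00539), both lower. The macrophage and neutrophil marker sums were 1.43 to 1.85 and 0.36 to 1.21 after Epo, against 17.8 to 21.9 and 18 to 22.9 before, and their part in the result was not tested. Erythroid markers summed to 4.4 to 5.14 after Epo and 6.13 to 9.05 before. Their sum was thus lower after Epo, though the group is described as erythroid differentiation. A sum of linear levels follows the most abundant markers, and values of single markers are not given here. Mast cell markers summed to 532 to 573 after Epo and 790 to 832 before. Cd34 mRNA was at 0.70 ± 0.17 without a call.

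CD34- CD103- Epo cells were also set against CD34+ CD103- cells, with arrays that both earlier comparisons of the set use. Here 3 members were called, where 5.52% of genes were (2.57% higher, 2.95% lower). E2f2 was 0.62 ± 0.08 higher (adjusted p = 0.00112, n = 3 and 4), Ccne1 0.36 ± 0.08 higher (0.0285, held in 1 of 7 fits with 1 array left out, its second probe uncalled at 0.16) and Kif23 fell by 0.49 ± 0.12 (0.0473, also 1 of 7). By spike-in E2f2 was at 0.18 and Ccne1 at -0.07, without a call, and 23 members were called, all lower, where the median of all genes was -0.41 and 34% of genes were called (33.4% lower). The medians were 0.03 for S phase and -0.22 for mitosis genes. Mcm2, Mcm5, Pcna, Rrm2, Ccne2, E2f1 and Gins1 stood at 0.13, 0.12, 0.07, 0.05, 0.36, 0.02 and 0.01. Cdk1, Ccnb1, Mki67, Top2a, Plk1, Aurkb, Cdc20, Foxm1 and Bub1b stood at -0.38, 0.15, 0.04, -0.15, -0.25, -0.34, 0.10, -0.17 and 0.01. Zwint, of the kinetochore, was the 1 gene called outside the list (0.42 ± 0.08, adjusted p = 0.0151).

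The 2 Epo responses were tested against each other, as Ediff minus EryCP repeat minus the response of CD34- CD103- cells. Ediff is described as cells without CD34 and cKit, so that Epo and this selection cannot be told apart in the first response. The array sets differ too. The difference was called for 33 members, 32 larger in Ediff and Mcm3 smaller, where 37.8% of 27291 genes were called (23.6% and 14.3%), and for 8 with spike-in scaling, 3 larger and 5 smaller, where 29.8% of genes were called (3.8% and 26%). Under both scalings E2f2 (2.63 ± 0.14, adjusted p = 6.27e-08, 1.91 by spike-in), Ube2c (2.46 ± 0.23, 6.15e-06, 1.74 by spike-in) and Ccne1 (1.49 ± 0.14, 5.73e-06, 0.77 by spike-in) rose more in Ediff, and Mcm3 (-0.87 ± 0.16, 0.00126, -1.59 by spike-in) was lower. The mitosis median was 0.93 and the S phase median 0.24 (0.37 over all genes), or 0.20 and -0.48 by spike-in (-0.36). Called with 75th percentile scaling alone were Nusap1 (1.25), Birc5 (1.19), Ccna2 (1.17), Rfc4 (1.14) and Cdc6 (1.09), at 0.52, 0.47, 0.44, 0.41 and 0.36 by spike-in, with Pcna (0.49), Rrm2 (0.57), E2f1 (0.35), Ccnb1 (1.09), Mki67 (1.09), Plk1 (0.93), Aurkb (0.57), Cdc20 (1.04) and Foxm1 (1.04). Mcm2 (0.19), Mcm5 (0.21), Cdk1 (0.22), Ccne2 (0.01) and Top2a (-0.09) were not called. Outside the list Psrc1 (3.75 ± 0.14, adjusted p = 2.68e-09) and Cdc25b (3.64 ± 0.14, 4.22e-09) led the mitosis genes, Brca2 (1.20) and Recql4 (1.17) the S phase genes, and Timeless (-0.44) was smaller.

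With 75th percentile scaling and no slide block, 8 of the 50 members were never called over the 7 comparisons within a set. They were Mcm4, Mcm6, Tyms, Rfc3, Ccne2, Top2a, Bub1b and Ttk. With slide as a block calls were added among these 8, for example Mcm4 in EryCP against Sca1hi and Mcm6 in CR Sca1lo against Sca1hi. Calls that the block added in Ediff are not listed here. Both probes of Tyms were called in Ediff in the fit over all probes. Without the block, E2f2 and Ccne1 were the 2 members called in 3 or more comparisons. Within the third set E2f2 was lowest in CD34+ CD103- (2.04 ± 0.04, SD, n = 4), then CD34- CD103- Epo (2.66 ± 0.02, n = 3) and CD34- CD103- (2.87 ± 0.11, n = 4), and the last 2 were not called apart. In the first set the order was CR Sca1lo (1.21 ± 0.11), Sca1hi (2.64 ± 0.10) and EryCP (2.95 ± 0.20), with the last 2 called apart with slide as a block alone. E2f2 in the 2 measurements of the same labelled fraction, EryCP and EryCP repeat, was at 2.95 ± 0.20 and 4.15 ± 0.18, in sets whose levels were not tested against each other.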

How the data were processed

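RNA from the 26 samples was labelled with Cy3 and hybridised to one-colour Agilent arrays. Per the file headers, the authors' deposited files hold the scanner output of Feature Extraction 10.1.1.1 (first 2 sets) and 10.7.1.1 (the third set), whose processed signal is a background-subtracted intensity per spot. The authors' deposited value table holds log2 values, which follow the median signal in the first 2 sets and the processed signal in the last set. No depth applies to arrays, and the number of arrays limits the precision.

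Control and outlier spots were left out, spots of a probe were averaged, and log2 of the processed signal was centred on each array's 75th percentile. A probe was kept where at least 0.5 of its spots were well above background on every array of some group. Of 41174 probes, 27071 had a gene symbol. Each gene was its probe with the highest mean. Differences were tested with limma 3.58.1 (R 4.3.3) on all arrays of a set, with Benjamini-Hochberg adjustment and calls at 0.05, and the fits were tested on simulated data. Alternatives were spike-in scaling (9 probes), quantile normalization, normexp with offset 50, the value table, no filter, slide as a block, single arrays left out and other fits.

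The members and lists were chosen with earlier results of these data known. Named in every comparison were 16 fixed genes. The others were the called members with the 4 largest differences of each list, the largest against the direction of its median, and the uncalled one with the smallest. Groups were taken from the sample labels. Promoter windows and start sites came from RefSeq (250 bases before, 50 after).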

Additional observations from a re-analysis of the deposited data

Results flagged for a closer look

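On the first CD34- CD103- array, Rfc3 had a log2 level of 0.81 against 0.56 to 0.59 on the other 3, and Ttk one of -1.90 against -1.63 to -1.58. Both gaps exceed Dixon's 95% limit, which chance passes in about 1 in 20 groups, and 2 of 100 groups of 4 arrays passed it. Neither gene was called in any comparison within a set by the fit with 75th percentile scaling and no slide block.

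In the limma contrast of both Epo responses 37.8% of 27291 genes were called, 23.6% larger in Ediff and 14.3% smaller. By this contrast the response to Epo differed between Ediff and CD34- CD103- cells for 33 members, with 32 larger and Mcm3 smaller. For the members named for the size of their difference, it was 2.63 for E2f2 (adjusted p = 6.27e-08), 2.46 for Ube2c (6.15e-06), 1.49 for Ccne1 (5.73e-06), 1.25 for Nusap1 (0.000255), 1.19 for Birc5 (6.45e-05), 1.17 for Ccna2 (2.99e-05), 1.14 for Rfc4 (9.27e-05), 1.09 for Cdc6 (1.64e-05) and -0.87 for Mcm3 (0.00126). Nusap1, Birc5, Ccna2, Rfc4 and Cdc6 were not called with spike-in scaling. That scaling called 8 members, 3 larger in Ediff and 5 smaller, where 29.8% of all genes were called (3.8% larger, 26% smaller). The 2 responses come from different array sets, labelled EML and EMLe2, and from cells sorted in different ways. These differences cannot be told apart here.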

How the results depend on the processing

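The counts of called members were 2, 2 and 0 in the first set (CR Sca1lo against Sca1hi, EryCP against CR Sca1lo, EryCP against Sca1hi), 39 in Ediff, 9, 1 and 3 in the third set (CD34- CD103- against CD34+ CD103-, and Epo against CD34- CD103- and against CD34+ CD103-) and 33 for the difference of the Epo responses. Slide as a block gave 5, 11, 13 and, for CD34- CD103- against CD34+ CD103-, 15. Spike-in scaling gave 1 and 1 in the first pair, 21 in Ediff, 15, 0 and 23 in the third set and 8 for the difference, and Ccne1 in Epo against CD34+ CD103- turned to -0.07. Of all genes, spike-in scaling called 1.59% and 2.78% in the first pair and 1.83% for Epo against CD34- CD103-, with the other shares given above. The value table gave 4, 7, 5 and, for Epo against CD34- CD103-, 0, where 8.41%, 11.3%, 11% and 2.58% of all genes were called. One fit of all 26 arrays gave 5 and 7 for the EryCP contrasts, and 0 for Epo against CD34- CD103-. It called 13.5%, 14.1% and 1.66% of all genes there. Quantile normalization gave 4 in the first contrast and 0 for Epo against CD34- CD103-, and no filter 1 and 0. The shares of all genes called were 6.09% and 2.57% with quantile normalization, and 2.23% and 1.7% with no filter. Trended, robust variances gave 2 in EryCP against Sca1hi, 14 in CD34- CD103- against CD34+ CD103- and 6 for Epo against CD34- CD103-. With these variances 7.12%, 14.1% and 4% of all genes were called. Normexp gave 0 in the first contrasts, in Ediff and for Epo against CD34- CD103-, and 2 for the difference. Few genes of any kind were called with normexp there. The shares were 0.00756%, 0.276% and 0.37% in the first set, 0.951% in Ediff, 1.34% for Epo and 2.88% for the difference. Several arrays held single spots of very high local background, and normexp without these, chosen after seeing the data, gave 14 in CD34- CD103- against CD34+ CD103- and 3 for Epo. Of all genes 12.9% and 2.75% were called in that fit. Without slide 2 of the first set, also chosen after seeing the data, the first contrasts gave 1 and 1, where 1.54% and 3.17% of all genes were called.

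With each array left out in turn the counts ran from 1 to 1, 1 to 2, 0 to 0, 34 to 38, 4 to 9, 0 to 3, 1 to 3 and 28 to 33, in the order above. Of 33 called differences of named genes, the call held in 24 whichever array was left out, in 19 with spike-in scaling, in 30 with quantile normalization and in 10 with normexp. No paired analysis was possible because the labels number samples consecutively, and groups of an array set share no number. Slide as a block, given above, matches arrays by slide. The 3 or 4 arrays per group limit the precision.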
